A study of Oryza sativa with 12 samples.

Results

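The change with salt was followed in rice roots that were given spermidine, by setting roots held with spermidine and NaCl together against roots held with spermidine alone. The measured features were unigenes, which are clusters of assembled transcripts, whose best protein hit named the genus Oryza. Of 182689 unigenes in the deposited table, 68051 had such a hit, and 41491 of these averaged 1 FPKM or more across the 12 libraries, out of 65836 unigenes that did. FPKM counts sequenced fragments relative to transcript length and to the size of the library. A unigene with an Oryza hit is called rice-hit below, and a gene can be split over several unigenes.

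All roots were of rice (Oryza sativa), labelled WT, and poly-A RNA was sequenced from 3 libraries in each of 4 groups. One group received 0.1 mM spermidine for 72 h, and its counterpart received 0.1 mM spermidine with 100 mM NaCl for 72 h. The other pair, used here only to give the change with salt in the absence of spermidine, was untreated roots, for which no time is given, and roots with 100 mM NaCl for 72 h. The labels name no cultivar or plant age, and they do not say whether the libraries of a group came from separate plants, so the p-values reflect spread among these libraries that may be technical only.

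Spermidine belongs to the polyamines, small positively charged molecules. Plants make it from putrescine, and it has been studied as a treatment for salt stress. Salt acts on roots through the lower water potential of the medium and through the entry of sodium, which competes with potassium. Roots are known to answer with osmolytes such as proline, with pumps and exchangers that move sodium into the vacuole or out of the cell, and with changes in wall growth and in hormone signals, among them abscisic acid, cytokinin, ethylene and jasmonate.

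Rice-hit unigenes held 73.5%, 77.4% and 74.8% of the FPKM in the spermidine libraries and 79.2%, 76.5% and 78.9% in the spermidine+NaCl libraries. Pearson's r between libraries over rice-hit log2 values, as a description across unigenes that share libraries and a mapping, was 0.94 to 0.953 within the spermidine group, 0.927 to 0.954 within the spermidine+NaCl group and 0.911 to 0.939 between them. Spermidine+NaCl library 1 was the most distant of its group. Unigenes of the Casparian strip and suberin list, markers of endodermis and exodermis, summed to 2336, 2386 and 2494 FPKM with spermidine and to 2704, 2691 and 2553 FPKM with both. Shoot and green tissue markers summed to 170.0, 56.9 and 38.0 FPKM and to 51.2, 43.1 and 44.1 FPKM in the same order, to 52.9, 49.7 and 45.8 FPKM untreated and to 58.8, 39.5 and 319 FPKM with NaCl. NaCl library 3 thus carried the most and spermidine library 1 the next most, and the part of either in the results was not tested beyond leaving it out.

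With spermidine present, 389 rice-hit unigenes were higher with salt and 239 were lower, which were 0.938% and 0.576% of those tested (limma on log2(FPKM + 1), 3 libraries against 3, Benjamini-Hochberg adjusted p below 0.05 over all 65836 unigenes). The rises had a median of 0.76 on the log2 scale and reached 4.36, and 147 of them were past 2-fold. The falls had a median of -0.96 and reached -4.17, with 112 past 2-fold. The 3 values of a group lay wholly above those of the other for 6272 rice-hit unigenes that were higher (15.1%) and for 3797 that were lower (9.15%). Over all 65836 unigenes, 2.33% were called. In whole-root RNA, fewer cells of a type and less RNA per cell cannot be told apart.

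The number of calls moved with single libraries. Without spermidine+NaCl library 1, 2 or 3 there were 39, 46 and 19 calls in place of 628. Without spermidine library 1, 2 or 3 there were 96, 882 and 208. When limma was fitted to all 4 groups, with a shared estimate of the spread, 2192 rice-hit unigenes (5.28%) were called. Scaling the rice-hit unigenes to a common total moved the split between rises and falls from 61.9% higher to 50.5% higher, with 212 rises and 208 falls. Of the 78 unigenes named below that were called, all kept their direction in each alternative that tested them, 2 stayed called whichever library was left out (expansin-A28 and cationic peroxidase SPC4), and 23 were called in none of the 6 fits that left out a library. With no filter on low values there were 141 calls. With a replicate block limma made 0 calls (3932 higher and 1983 lower at an unadjusted p below 0.05), so no named unigene was called there, expansin-A28 and SPC4 included. Beside each gene list with 3 or more calls, the range of the count over the 6 fits that left out a library is given.

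**Figure D1:**
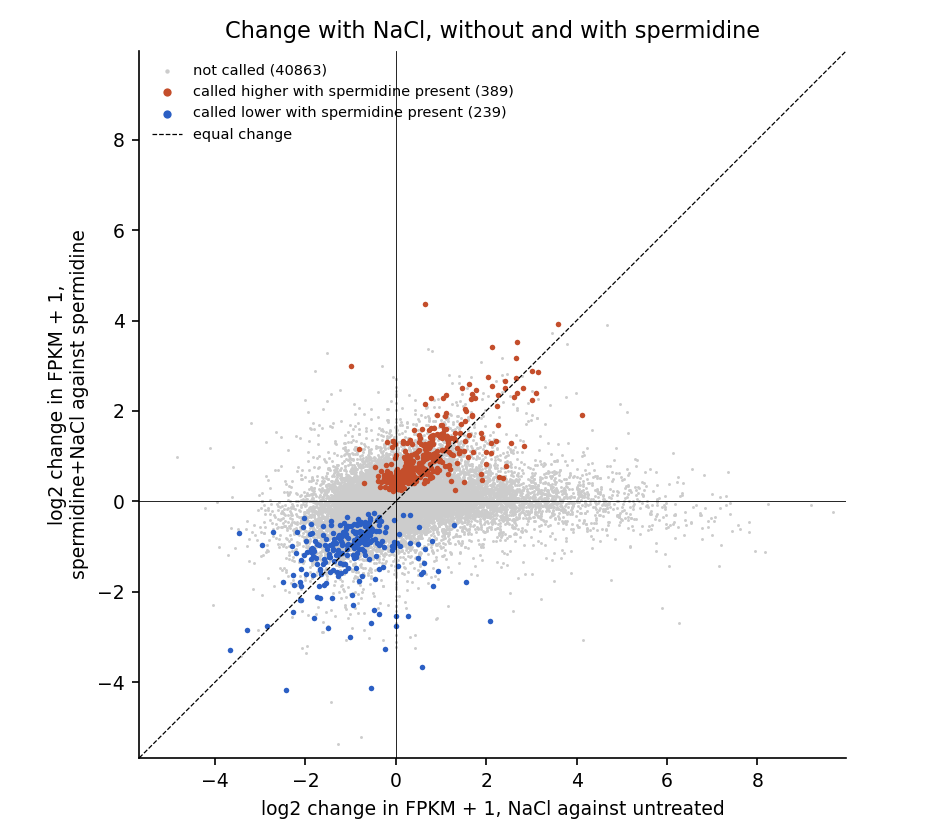
Each point is a rice-hit unigene, with its log2 change in FPKM + 1 with NaCl in the absence of spermidine on the x axis and in its presence on the y axis. The 389 red and 239 blue points were called higher and lower with spermidine present, and the dashed line marks equal change. Many points stretch to the right near the height of 0.

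Compared over all rice-hit unigenes, the spread of the change with salt was smaller with spermidine present. The SD of the log2 changes was 0.449 with spermidine and 0.943 without, and the medians were 0.04 and -0.12. Salt alone called 9506 rice-hit unigenes (22.9%), by the same test on 2 groups that shared no library with the first pair. The median SE of a change was 0.184 with spermidine and 0.169 without. Of the 628 calls, 318 (50.6%) were also called in the same direction without spermidine, 150 higher and 168 lower, and these were 3.35% of the 9506. A further 5 were called in opposite directions, and 305 were called only in the pair with spermidine present, which does not show that they differed between the pairs.

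The difference itself was tested as an interaction, the change with salt in the presence of spermidine minus the change in its absence, in a fit of all 12 libraries. It was called for 5027 rice-hit unigenes (12.1%), of which 2213 were positive (5.33%) and 2814 negative (6.78%). Scaling by median ratios moved its median from 0.17 to 0.02 and its split to 1034 positive and 3316 negative, and scaling rice-hit unigenes to a common total gave 3670 and 3051. Without NaCl library 3, the richest in shoot markers, 3681 were called, 1480 positive and 2201 negative. The interaction holds the libraries of both pairs, so its overlap with the calls of either pair is not given.

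The unigenes that salt alone raised by at least 1 log2 unit numbered 3191, with a median rise of 2.05. With spermidine present their median change was 0.08, and 82 of them (2.57%) were called higher and 0 lower. The 1553 unigenes that salt alone lowered by at least 1 log2 unit had a median of -1.37, against -0.35 with spermidine present, where 105 (6.76%) were called lower and 0 higher. The 2 sets were chosen on the change without spermidine, so the count of interactions in them is not given as a result.

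**Figure D2:**
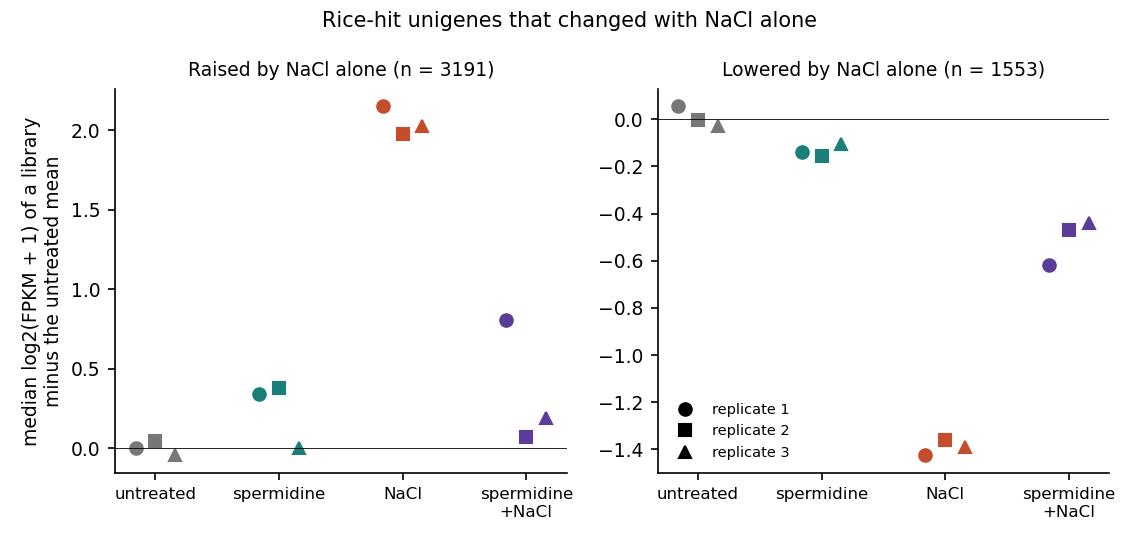
Each symbol is a library, with the median over unigenes of its log2(FPKM + 1) minus the untreated mean on the y axis, for the 3191 unigenes raised and the 1553 lowered by NaCl alone. In the raised set, spermidine+NaCl library 1 sits at 0.81 and the other two at 0.07 and 0.19, and in the lowered set all 3 lie between -0.62 and -0.44.

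Libraries of the same group differed in the raised set. Relative to the untreated mean, its median stood at 0.34, 0.38 and 0 in the spermidine libraries and at 0.81, 0.07 and 0.19 in the spermidine+NaCl libraries, with all NaCl libraries at 1.98 or above. Spermidine+NaCl library 1 and spermidine libraries 1 and 2 were therefore high, and the groups overlapped. In the lowered set the spermidine libraries stood at -0.14, -0.16 and -0.1 and the spermidine+NaCl libraries at -0.62, -0.47 and -0.44, without overlap.

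Over all rice-hit unigenes 0.938% were called higher and 0.576% lower, and 15.1% and 9.15% lay wholly above and wholly below. At an unadjusted p below 0.05, 4678 of the 41491 rice-hit unigenes were higher and 2533 lower. Percentages beside the counts of a gene list are shares of its tested members. Of the 39 gene lists, the one for cell wall loosening had the largest share of members called higher, 11.8%. Expansins are wall proteins that let cellulose and its partner polysaccharides slip during growth, and xyloglucan enzymes cut and rejoin wall chains. Of 161 tested members of this list, 19 were higher and 1 was lower (0.621%). In any fit with a library left out, 1 to 24 were higher and 0 lower. Wholly above lay 66 (41%) and wholly below 8 (4.97%). Every member called was an expansin, and no xyloglucan enzyme was called. The median change over the list was 0.35, against 0.04 over all rice-hit unigenes. Without spermidine, salt gave 56 higher and 19 lower in the same list, against 11.3% and 11.6% over all rice-hit unigenes.

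A unigene matching expansin-A31 was at 0.62, 0 and 0 FPKM with spermidine and at 15.2, 13.6 and 23.3 with both. All spermidine libraries were under 1 FPKM and all salt libraries above 13. The change was 3.93 on the log2 scale (SE 0.31, adjusted p = 0.0187). Expansin-A23 was at 0.71, 0.79 and 0 FPKM with spermidine and 8.71, 14.9 and 29.3 with both, with a change of 3.52 (SE 0.50, adjusted p = 0.0446). Spermidine+NaCl library 3 was the highest for both genes.

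Expansin-A19 was at 0.17, 0 and 0 FPKM with spermidine and at 7.43, 12.1 and 6.81 with both, a change of 3.17 (adjusted p = 0.0187). Expansin-A15 was at 2.23, 4.1 and 2.39 FPKM with spermidine and 23.9, 25.8 and 23.9 with both, a change of 2.74 (adjusted p = 0.0172). The groups did not overlap for either gene, and salt without spermidine moved them by 2.66 and 2.65. Several unigenes carried each of these names, and reads shared between close copies can move values from one to another.

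Among members picked after their values were seen, expansin-A28 was at 13.3, 12.9 and 12.6 FPKM with spermidine and at 45.7, 51.8 and 58.7 with both, a change of 1.92 (SE 0.099, adjusted p = 0.0122). Its spermidine libraries were within 1 FPKM of each other. Expansin-B18 was at 1.1, 1.05 and 1.7 FPKM with spermidine and 8.73, 13 and 10.3 with both, and its rise of 2.35 exceeded the 1.11 seen without spermidine (interaction 1.23, adjusted p = 0.00633). It was at 2.69, 2.98 and 2.54 FPKM untreated and 7.12, 7.42 and 6.71 with NaCl. The spermidine libraries of expansin-B18 thus lay below the untreated ones. Expansin-A6, the most abundant of those described, was at 29.2, 38.9 and 24.7 FPKM with spermidine and 70.5, 81.7 and 73.2 with both, with a rise of 1.27 against a change of 0.36 without spermidine (interaction adjusted p = 0.0259). For both genes the change with salt was thus larger with spermidine present, which did not hold across the list. The interaction was called positive for 20 members (12.4%) and negative for 15 (9.32%), against 5.33% and 6.78% over all rice-hit unigenes. It was not called for expansins A31, A23, A19 and A15 (adjusted p = 0.69, 0.565, 0.318 and 0.939).

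The single member called lower was expansin-B5, at 22.2, 22.8 and 22.9 FPKM with spermidine and 10.9, 12.9 and 14.8 with both, a change of -0.78 (adjusted p = 0.0461). Salt alone lowered it too, from 23.8, 19.8 and 22.5 to 7.45, 8.63 and 9.65 FPKM, and the interaction was not called (adjusted p = 0.115).

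**Figure D3:**
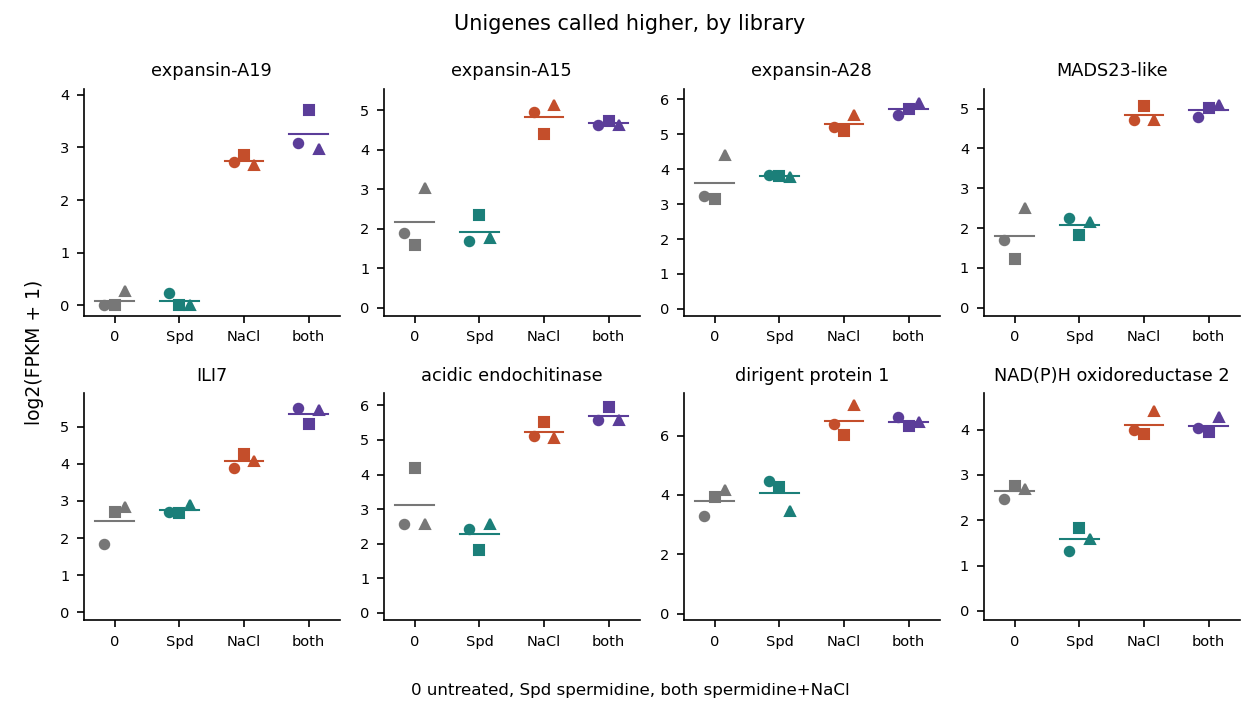
Each symbol is a library (circle, square and triangle for replicates 1 to 3) and each line a group mean, with log2(FPKM + 1) on the y axis, for 8 unigenes called higher with spermidine+NaCl than with spermidine. In all 8 the spermidine+NaCl libraries lie wholly above the spermidine libraries.

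Other wall genes rose in smaller number. Of 182 tested members for cellulose, COBRA and pectin, 6 were higher (3.3%) and 0 lower. In fits with a library left out 0 to 10 were higher. At an unadjusted p below 0.05, 36 were higher and 6 lower, against 4678 and 2533 of the 41491 rice-hit unigenes. Cellulose synthase-like E6, of the family that builds wall glucans, was at 2.69, 2.86 and 3.06 FPKM with spermidine and 6.98, 7.84 and 7.82 with both, a change of 1.14 (adjusted p = 0.0265). A 14 kDa proline-rich protein of the DC2.15 type, picked after its values were seen, was at 424, 365 and 404 FPKM with spermidine and at 835, 1071 and 1279 with both, a change of 1.39 (adjusted p = 0.0408). Its lowest salt library stood well above its highest spermidine library.

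Members of the lignin and phenylpropanoid list, which includes dirigent proteins, were called in both directions. Lignin is a phenolic polymer laid down in walls by peroxidases and laccases, and dirigent proteins steer the coupling of its relatives. Of 231 tested members of the list, 6 were higher (2.6%) and 3 lower (1.3%). With a library left out these were 0 to 10 and 0 to 3. Dirigent protein 1 was at 21.4, 18.1 and 9.92 FPKM with spermidine and at 98.5, 78.4 and 86 with both, a change of 2.4 (adjusted p = 0.0352). Dirigent protein 2 went the other way, from 4.29, 5.14 and 6.02 to 0.82, 0.76 and 0.48 FPKM, a change of -1.86 (adjusted p = 0.026). Neither pair of groups overlapped.

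Laccase-3 was at 12.2, 14.2 and 12.4 FPKM with spermidine and 31.2, 34.1 and 23 with both, a change of 1.11 (adjusted p = 0.0475). In the barrier list of 80 members, 2 were higher (2.5%) and 0 lower. One was omega-hydroxypalmitate O-feruloyl transferase, which in Arabidopsis adds ferulate to suberin, at 52.8, 61.9 and 48.3 FPKM with spermidine and 118, 122 and 98.9 with both (change 1.04, adjusted p = 0.0348). The other was Casparian strip membrane protein 5, of the family that marks where the endodermal barrier forms, at 8.54, 8.11 and 10.1 FPKM with spermidine and 14.9, 15.9 and 14.7 with both (change 0.71, adjusted p = 0.0412). The salt libraries were the higher for all of these.

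Class III peroxidases are secreted enzymes that use hydrogen peroxide to cross-link or loosen walls. Of 305 tested, 20 were higher (6.56%) and 5 lower (1.64%). With a library left out these were 0 to 18 and 1 to 6. The list's median was 0.09. Peroxidase P7 was at 23.6, 30.1 and 21.8 FPKM with spermidine and 71.7, 64.4 and 83.6 with both, a change of 1.51 (adjusted p = 0.0265). A peroxidase 2-like unigene was at 1.55, 0.78 and 1.25 FPKM with spermidine and 12, 12.3 and 9.95 with both, a change of 2.51 (adjusted p = 0.0184). Members of this family thus stood at low and at high levels among the rises.

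A unigene matching cationic peroxidase SPC4 was at 122, 125 and 118 FPKM with spermidine and at 59.3, 61.8 and 57.2 FPKM with both, a change of -1.02 (SE 0.046, adjusted p = 0.0107). Its libraries lay close together within each group, and it stood at 123, 121 and 110.2 FPKM untreated and 62.7, 60.2 and 64.3 with NaCl. A peroxidase 2 unigene fell from 34.1, 46.1 and 36.5 to 19.1, 16.1 and 13.9 FPKM, a change of -1.2 (adjusted p = 0.0417).

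Pathogenesis-related proteins and chitinases are secreted proteins induced by microbes and by several abiotic stresses. Of 255 tested members, 11 were higher (4.31%) and 6 lower (2.35%). With a library left out these were 1 to 15 and 0 to 3. An acidic endochitinase unigene was at 4.36, 2.55 and 4.98 FPKM with spermidine and at 46.4, 60.9 and 46.8 with both, a change of 3.42 (adjusted p = 0.0165). A further unigene of that description, whose other database hit was xylanase inhibitor protein 2, was at 4.12, 7.9 and 6.13 FPKM with spermidine and 39.8, 58.4 and 51.7 with both (change 2.87, adjusted p = 0.0216). Outside the list by its wording, a pathogen-related protein was at 0.9, 1.19 and 0.6 FPKM with spermidine and 13.6, 9.4 and 7.28 with both (change 2.52, adjusted p = 0.0281). All 3 rose from low levels.

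Glucan endo-1,3-beta-glucosidase 3, which cuts callose and fungal wall glucan, went from 10.02, 11.5 and 14 to 2.62, 4.49 and 2.63 FPKM, a change of -1.61 (adjusted p = 0.0436). PRB1-2-like, of the PR-1 family, moved in opposite directions with and without spermidine. It was at 33.4, 23.3 and 29.5 FPKM with spermidine and 9.18, 7.43 and 4.92 with both, while it was at 25, 34 and 27.8 untreated and 59, 40.4 and 56.3 with NaCl. The changes were -1.88 (adjusted p = 0.0386) and 0.81 (adjusted p = 0.0462), and the interaction was -2.7 (adjusted p = 0.000675).

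Aquaporins are membrane channels for water and small solutes. Of 77 tested members, 5 were higher (6.49%) and 0 lower (0 to 6 higher with a library left out). Wholly above lay 26 (33.8%) and wholly below 6 (7.79%). Vacuolar aquaporin TIP2-1 was at 168, 169 and 184 FPKM with spermidine and at 292, 311 and 349 with both, a change of 0.86 (adjusted p = 0.0263). A further TIP2-1 unigene was at 152, 149 and 155 FPKM with spermidine and 227, 251 and 268 with both (change 0.7, adjusted p = 0.027). The groups did not overlap for either.

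The NIP2 pair carries silicic acid in rice. NIP2-2, picked after its values were seen, was at 66.2, 73 and 64.1 FPKM with spermidine and 94.3, 111 and 115 with both, a change of 0.64 (adjusted p = 0.0486). NIP2-1 was at 59.6, 44.1 and 43.9 FPKM with spermidine and 19.8, 24.2 and 27.2 with both, a change of -1.02 that missed the threshold (adjusted p = 0.0633). Without spermidine it went from 50.8, 48.6 and 39.9 FPKM to 4.23, 0 and 4.88 with NaCl, a change of -3.91, and the interaction was 2.9 (adjusted p = 0.0364). The interaction was lost with median-ratio scaling, with a pseudocount of 0.1 and with no filter on low values, and it stayed called in 3 of the 12 fits that left out a library.

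Proton pumps, which energise transport across the vacuolar and plasma membranes, had 3 of 48 members higher (6.25%) and 0 lower. With a library left out 0 to 3 were higher. All 3 members called were subunits of the vacuolar ATPase. Subunit E was at 18.6, 18.1 and 16.9 FPKM with spermidine and 32.3, 31.4 and 31.9 with both, a change of 0.8 (adjusted p = 0.0147). Catalytic subunit A was at 21.6, 24.9 and 22.3 FPKM with spermidine and 33.6, 38.7 and 41.2 with both (change 0.7, adjusted p = 0.043). Subunit B 2, picked after its values were seen, was at 20.3, 19.1 and 17.8 FPKM with spermidine and 29.6, 30.6 and 30.3 with both (change 0.64, adjusted p = 0.0224). The 3 subunits moved by similar amounts, and none was called for the interaction.

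Of 17 tested sodium transport members, 1 was higher (5.88%) and 0 lower, and with any library left out none was called. It was the sodium/hydrogen exchanger NHX2, which loads sodium or potassium into the vacuole, at 4.69, 4.58 and 5.57 FPKM with spermidine and 9, 8.58 and 8.99 with both (change 0.73, adjusted p = 0.0446). HKT8, a transporter that in rice withdraws sodium from the xylem, was at 27, 26 and 30.5 FPKM with spermidine and 28.7, 20.9 and 20.1 with both (change -0.27, SE 0.15, adjusted p = 0.456). Its groups overlapped. NHX7, the name in Arabidopsis for the plasma membrane exchanger SOS1, was at 66.7, 69.7 and 67.8 FPKM with spermidine and 75.1, 66.8 and 68.2 with both (change 0.04, SE 0.056, adjusted p = 0.789).

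Of 63 potassium transport members, 0 were higher and 1 was lower (1.59%). It was AKT1, the main inward potassium channel of roots, at 257, 249 and 247 FPKM with spermidine and 144, 157 and 166 with both, a change of -0.69 (SE 0.067, adjusted p = 0.0243). Without spermidine it went from 300.2, 288 and 267 to 142, 115 and 121 FPKM, a change of -1.18. The fall was smaller with spermidine present by 0.49 (interaction adjusted p = 0.0334).

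**Figure D4:**
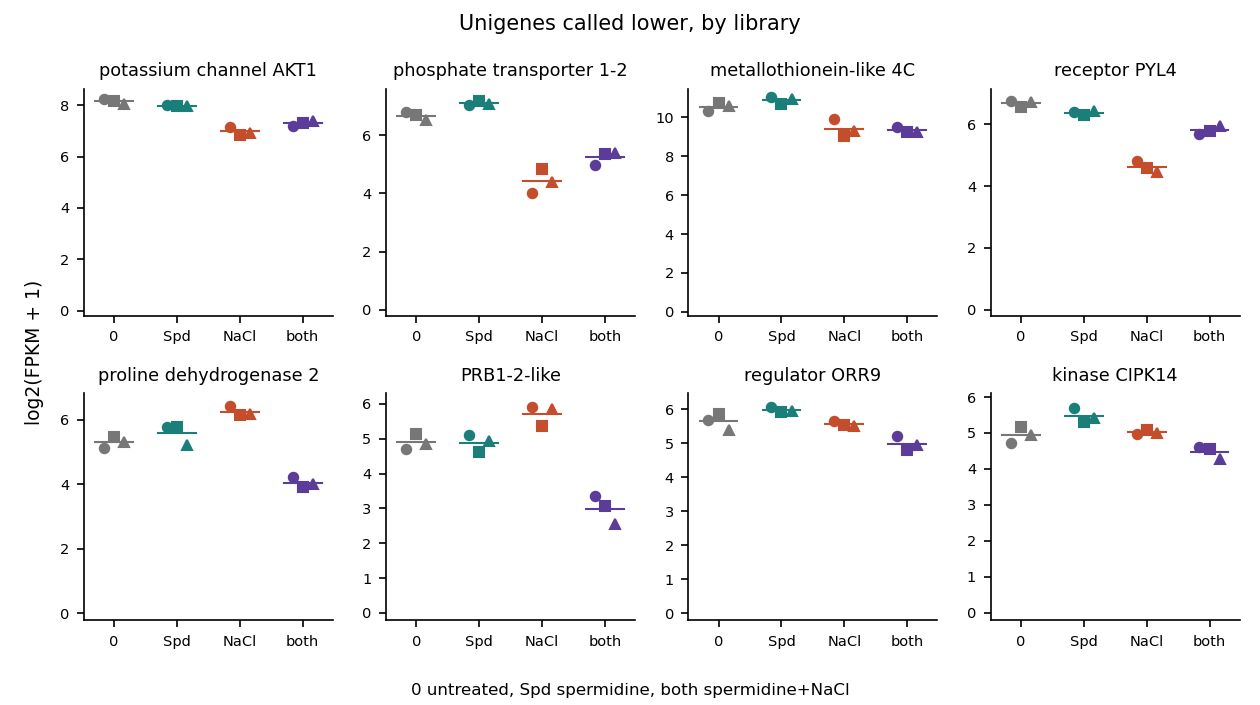
Each symbol is a library (circle, square and triangle for replicates 1 to 3) and each line a group mean, with log2(FPKM + 1) on the y axis, for 8 unigenes called lower with spermidine+NaCl than with spermidine. Proline dehydrogenase 2 and PRB1-2-like lie above the untreated libraries with NaCl alone and below the spermidine libraries with both.

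Of 78 phosphate members, 4 were lower (5.13%) and 1 was higher (1.28%). With a library left out 0 to 3 were called in each direction. Purple acid phosphatase 2, of a family that frees phosphate from organic compounds, was at 31.7, 29.1 and 21.4 FPKM with spermidine and 2.55, 4.15 and 6.32 with both, a change of -2.46 (adjusted p = 0.0364). Phosphate transporter 1-2, picked after its values were seen, was at 132, 145 and 134 FPKM with spermidine and 30.8, 40.2 and 41.4 with both (change -1.85, adjusted p = 0.0165). Phosphate transporter 1-4 rose, from 8.42, 8.88 and 7.75 to 16.6, 23.2 and 18.5 FPKM (change 1.12, adjusted p = 0.035). Members of the same transporter family thus moved apart.

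Among the osmolyte genes, 2 of 80 were higher and 2 lower (2.5% each). With a library left out these were 0 to 2 and 0 to 4. The best known pair concerned proline. Delta-1-pyrroline-5-carboxylate synthase, which starts proline synthesis, was at 1.75, 2.19 and 1.57 FPKM with spermidine and 5.84, 7.43 and 7.02 with both, a change of 1.45 (adjusted p = 0.0324). Proline dehydrogenase 2, which starts its breakdown, was at 53.3, 54.2 and 36.3 FPKM with spermidine and 17.7, 14.1 and 15.1 with both, a change of -1.54 (adjusted p = 0.0346). Without spermidine the dehydrogenase rose instead, from 34, 42.8 and 39.1 to 84.9, 69.7 and 71.1 FPKM, by 0.94 (adjusted p = 0.0075). The interaction was -2.48 (SE 0.23, adjusted p = 0.000189). The synthase rose in both settings, by 1.14 without spermidine, and its interaction was not called (adjusted p = 0.425).

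A galactinol-sucrose galactosyltransferase, of the raffinose pathway, fell from 38.1, 36.8 and 34.6 to 23.9, 22.9 and 24.2 FPKM (change -0.6, adjusted p = 0.0205). A unigene described as salt stress-induced protein-like, picked after its values were seen, went against its name. It was at 634, 409.7 and 504 FPKM with spermidine and at 95.2, 114 and 144 with both, a change of -2.12 (adjusted p = 0.0277), and salt alone lowered it too, with a change of -1.75 on the log2 scale. This unigene lay outside the late embryogenesis, dehydrin and salt stress root protein list by its wording. Of the 20 tested members of that list, 0 were called in either direction, so the 0 does not cover it. At an unadjusted p below 0.05, 3 members were higher and 0 lower, against 4678 and 2533 of the 41491 rice-hit unigenes. When limma was fitted to all 4 groups, 1 was called higher and 0 lower.

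Metallothioneins, small cysteine-rich proteins that bind metals, included an abundant unigene that fell, and the members given were picked after their values were seen. The family had no list and was not counted, so these members do not describe it as a whole. Metallothionein-like 4C was at 2129, 1639 and 1939.5 FPKM with spermidine and at 733, 603 and 607 FPKM with both, a change of -1.55 (adjusted p = 0.0338). A further 4C unigene was at 65.3, 81.2 and 80.9 FPKM with spermidine and 15.2, 23.1 and 23.3 with both (change -1.85, adjusted p = 0.027). Metallothionein-like 4B was at 69.3, 75.6 and 118 FPKM with spermidine and 24.4, 21.1 and 12.7 with both (change -2.13, adjusted p = 0.0495). The call of 4B was lost whichever library was left out. The groups were well apart for all 3, and their sequences may share reads.

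Cytokinin genes were called in a single direction. Of 80 tested members, 0 were higher and 8 lower (10%). With a library left out 0 to 8 were lower, and with rice-hit unigenes scaled to a common total 3 were. Wholly below lay 29 (36.2%) and wholly above 5 (6.25%), and the median of the list was -0.15. LOGL3, of the enzymes that release active cytokinin from its nucleotide, was at 32.9, 23.7 and 26.6 FPKM with spermidine and 10.6, 10.2 and 9.68 with both, a change of -1.36 (adjusted p = 0.0233). Response regulator ORR9, which is induced by cytokinin and dampens its signal, was at 66.5, 59.1 and 60.4 FPKM with spermidine and 36.3, 26.6 and 29.6 with both, a change of -0.99 (adjusted p = 0.0364). Salt alone changed it by -0.07, and the interaction was -0.92 (adjusted p = 0.0123).

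ORR4 and cytokinin dehydrogenase 11 were picked after their values were seen. ORR4, a regulator of the same type, went from 84.4, 76.3 and 90.4 to 50.1, 54 and 54.3 FPKM (change -0.65, adjusted p = 0.0328). Cytokinin dehydrogenase 11, which degrades cytokinin, went from 37.4, 40.2 and 38.3 to 28.1, 29.8 and 27.2 FPKM (change -0.43, adjusted p = 0.0346). Its change without spermidine was -1.44, and the interaction was 1.01 (adjusted p = 0.00121). Genes for the making, signalling and breakdown of the hormone were all among the 8.

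In abscisic acid signalling, receptors of the PYL family hold back protein phosphatases 2C when the hormone binds. Of 55 abscisic acid members, 0 were higher and 1 lower (1.82%). Of 192 protein phosphatases 2C, 1 was higher and 1 lower (0.521% each). Receptor PYL4 was at 83.3, 78.6 and 85.5 FPKM with spermidine and 50.6, 54.4 and 60.4 with both, a change of -0.58 (adjusted p = 0.0405). It went from 107, 92.7 and 106 to 27.3, 23.1 and 20.8 FPKM with salt alone, a change of -2.06 (interaction 1.49, adjusted p = 0.000345). Phosphatase 2C 46 fell from 22.1, 20.02 and 19.4 to 8.28, 6.73 and 7.59 FPKM (change -1.34, adjusted p = 0.017).

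Calcium signalling had 5 of 286 members lower (1.75%) and 0 higher (0 to 4 lower with a library left out). All 5 were CBL-interacting protein kinases, which act with calcium sensors on ion transporters. CIPK14, with 3 of the 5 unigenes, was at 51.3, 38.5 and 41.7 FPKM with spermidine and 23.4, 22.6 and 18.3 with both in the unigene that fell most, a change of -1.0 (adjusted p = 0.0474). Salt alone gave 0.08, and the interaction was -1.08 (adjusted p = 0.00734).

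Among transcription factor lists, the share called was 3.06% for bZIP, 2.48% for bHLH, 1.97% for AP2/ERF and 1.84% for MYB. It was 0.649% for WRKY and 0% for NAC, against 1.51% over all rice-hit unigenes. MADS-box factors had no list of their own. Counted after their values were seen, 5 of 43 tested were higher and 1 lower, against 0.938% and 0.576% over all rice-hit unigenes. With an unadjusted p below 0.05, 8 were higher and 4 lower, against 4678 and 2533 of the 41491 rice-hit unigenes. The member that fell is not described, and 3 of those that rose are given. MADS23-like was at 3.8, 2.54 and 3.45 FPKM with spermidine and 26.5, 31.4 and 33.1 with both, a change of 2.88 (adjusted p = 0.0124). MADS27, picked after its values were seen like MADS25, was at 3.55, 7.35 and 3.23 FPKM with spermidine and 20.5, 31.9 and 26.3 with both (change 2.3, adjusted p = 0.0436). MADS25 was at 7.52, 7.59 and 5.58 FPKM with spermidine and 26.5, 16.1 and 21.9 with both (change 1.49, adjusted p = 0.0451).

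Of 161 bHLH members, 3 were higher and 1 lower (0 to 2 and 0 to 1 with a library left out). ILI7, a helix-loop-helix protein of a family that promotes cell elongation, was at 5.51, 5.38 and 6.41 FPKM with spermidine and 44.3, 32.6 and 42.9 with both, a change of 2.59 (adjusted p = 0.0129). bHLH82 was at 5.87, 5.37 and 2.95 FPKM with spermidine and 21.4, 23.4 and 17.5 with both (change 1.96, adjusted p = 0.0378). Both groups of libraries were apart for each gene.

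WRKY factors, which are typical of defence and stress responses, had 1 of 154 members higher and 0 lower, against 76 higher and 14 lower with salt alone. Salt alone called 11.3% of all rice-hit unigenes higher and 11.6% lower. The member called with spermidine present was WRKY31, at 22.5, 17.4 and 14.3 FPKM with spermidine and 42.9, 58.9 and 45.2 with both. Its change was 1.4 (adjusted p = 0.0468), and it was not called with any library left out. The interaction was called positive for 8 WRKY members (5.19%) and negative for 61 (39.6%), against 5.33% and 6.78% over all rice-hit unigenes. In the AP2/ERF list of 203, 1 was higher and 3 lower (0 to 1 in either direction with a library left out), and 2 of those that fell were described only as ERF protein. One went from 29.8, 28.5 and 22 to 8.59, 5.16 and 8.73 FPKM (change -1.73, adjusted p = 0.0398) and the other from 31.6, 27.5 and 26.4 to 10.8, 8.47 and 13.7 FPKM (change -1.32, adjusted p = 0.0419). Of 98 bZIP members, 0 were higher and 3 lower (0 to 2 lower with a library left out). Among them basic leucine zipper 9 went from 33.5, 33.8 and 32.9 to 19.6, 15.2 and 16.2 FPKM (change -0.94, adjusted p = 0.027). Of 156 NAC members, 0 were called. At an unadjusted p below 0.05, 5 were higher and 15 lower, against 4678 and 2533 of the 41491 rice-hit unigenes. When limma was fitted to all 4 groups, 0 NAC members were higher and 5 lower, against 1389 and 803 rice-hit unigenes.

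Several regulators that salt alone raised by large amounts differed between libraries of the same group. ERF109, an ethylene-response factor, was at 27.8, 24.9 and 0.64 FPKM with spermidine and at 114, 0.92 and 2.36 with both, so spermidine library 3 and spermidine+NaCl libraries 2 and 3 were low and the rest high. It stood at 0.22, 1.47 and 0.24 FPKM untreated and 1619.7, 989 and 1258 with NaCl. The change with spermidine present was -0.24 (SE 2.04, adjusted p = 0.993) and the interaction -9.91 (SE 2.06, adjusted p = 0.0128). TIFY 11e, a repressor in jasmonate signalling, was at 39.4, 34 and 0 FPKM with spermidine and 90.7, 0 and 12.6 with both and at 1145, 1323 and 1160.3 with NaCl. Its interaction of -8.31 (adjusted p = 0.0437) was called in 2 of the 12 fits that left out a library and was lost with a pseudocount of 0.1, with no filter and with a replicate block.

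bHLH35 was at 19.98, 15 and 1.06 FPKM with spermidine, 11.1, 1.07 and 1.72 with both, 1.07, 1.15 and 1.14 untreated and 722, 589.6 and 523 with NaCl, with an interaction of -9.28 (adjusted p = 0.00103). The same libraries were high as for ERF109. In the other direction, an F-box protein was at 29.8, 23 and 29.6 FPKM with spermidine and 19.2, 26.7 and 28.5 with both, while salt alone took it from 41.8, 35.9 and 29.7 to 0.77, 2.6 and 0.17 FPKM (interaction 4.07, adjusted p = 0.000722). Its spermidine and spermidine+NaCl libraries overlapped.

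Jasmonate and germin-like genes were counted in the same way. Salt alone called 11.3% of all rice-hit unigenes higher and 11.6% lower. Of 89 jasmonate members, 1 was higher (1.12%) and 0 lower, against 38 and 10 with salt alone. The interaction was called negative for 34 (38.2%) and positive for 2 (2.25%), against 6.78% and 5.33% over all rice-hit unigenes. The member that rose was 9S-lipoxygenase 4, although jasmonate itself starts from 13-lipoxygenases. It was at 30.1, 33.9 and 25.4 FPKM with spermidine and 49.5, 51.2 and 53.3 with both (change 0.77, adjusted p = 0.0452). Of 49 germin-like proteins, 0 were called with spermidine present, against 23 higher and 1 lower with salt alone. With spermidine present, 2 were higher and 3 lower at an unadjusted p below 0.05, against 4678 and 2533 of the 41491 rice-hit unigenes. When limma was fitted to all 4 groups, 0 were called in either direction. The interaction was called negative for 24 of the 49 (49%), against 6.78% over all rice-hit unigenes.

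Of 52 polyamine members, 0 were called in either direction with spermidine present, where 1.51% of all rice-hit unigenes were called. At an unadjusted p below 0.05, 7 were higher and 9 lower, against 4678 and 2533 of the 41491 rice-hit unigenes. When limma was fitted to all 4 groups, 2 were called higher and 1 lower. With salt alone 15 were higher and 15 lower, where 11.3% and 11.6% of all rice-hit unigenes were. The interaction was called negative for 11 members (21.2%) and positive for 4 (7.69%), against 6.78% and 5.33% over all rice-hit unigenes. Its median over the list was 0.14. Arginine decarboxylase 1, at the start of the putrescine route, was at 79.4, 97.4 and 82.5 FPKM with spermidine and 102, 72.8 and 87.4 with both, and at 106, 91.7 and 94.9 untreated and 190.2, 175 and 186 with NaCl. Its interaction was -0.9 (adjusted p = 0.00922). The values with spermidine overlapped.

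S-adenosylmethionine decarboxylase, which supplies the aminopropyl group of spermidine, was at 92.9, 88.2 and 73.8 FPKM with spermidine, 127, 63 and 75.1 with both, 65.8, 72.9 and 63.7 untreated and 292, 274 and 258 with NaCl (interaction -2.01, adjusted p = 0.00219). Spermidine synthase 1 was at 73.1, 82.6 and 81.2 FPKM with spermidine and 100.1, 103 and 101 with both, a change of 0.36 (SE 0.057, adjusted p = 0.0567). Its groups did not overlap, and the change missed the threshold.

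Polyamine oxidase 2, which breaks polyamines down, was at 15.1, 17 and 17.5 FPKM with spermidine, 18.3, 13.7 and 14.5 with both, 15.3, 17.1 and 16.4 untreated and 54.6, 49.7 and 54.9 with NaCl (interaction -1.74, adjusted p = 0.00017). Putrescine hydroxycinnamoyltransferase 3, which links putrescine to phenolic acids, was at 13.1, 14.9 and 9.46 FPKM with spermidine and 20.5, 15.9 and 14.2 with both, and at 8.55, 13.2 and 12.3 untreated and 119, 115 and 114 with NaCl (interaction -2.84, adjusted p = 0.000235). All 3 NaCl libraries stood above every other library for both genes.

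Other polyamine members were lower with salt alone. Polyamine oxidase 4 was at 297, 326 and 363 FPKM with spermidine, 276, 239 and 286 with both, 387, 330.4 and 372 untreated and 209.9, 229.9 and 221 with NaCl, and its interaction of 0.42 was not called (adjusted p = 0.0865). Putrescine hydroxycinnamoyltransferase 2 was at 21.1, 19.96 and 16.6 FPKM with spermidine, 12.7, 14.6 and 11.9 with both, 21.5, 23.6 and 28.4 untreated and 8, 9.44 and 10.8 with NaCl (interaction 0.77, adjusted p = 0.0361). That interaction was lost with no filter, with median-ratio scaling and with a replicate block, and it stayed called in 3 of the 12 fits that left out a library. Primary amine oxidase 2, of a family that oxidises putrescine, is outside the list by its wording and was picked after its values were seen. It fell from 7.72, 7.5 and 8.41 to 0.85, 0.83 and 1.42 FPKM (change -2.14, adjusted p = 0.0199), and from 5.53, 7.58 and 5.6 to 0.98, 1.02 and 1.81 FPKM with salt alone.

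Detoxification genes rose in small number. Of 110 glutathione S-transferases, which join glutathione to reactive compounds, 4 were higher (3.64%) and 0 lower. With a library left out 0 to 3 were higher. Wholly above lay 36 (32.7%) and wholly below 7 (6.36%), and the median of the list was 0.26. GSTU6 was at 32.5, 32.6 and 35 FPKM with spermidine and 75.5, 68.3 and 77.9 with both, a change of 1.12 (SE 0.065, adjusted p = 0.0138). It was at 46.4, 72.9 and 65.5 untreated and 76, 59.7 and 73.9 with NaCl, and the interaction was 0.93 (adjusted p = 0.0227). GSTF1 was at 4.09, 3.73 and 4.49 FPKM with spermidine and 8.41, 11.2 and 11.3 with both (change 1.14, adjusted p = 0.0386).

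Of 162 antioxidant members, 3 were higher (1.85%) and 0 lower (0 to 3 higher with a library left out). Catalase isozyme A, which removes hydrogen peroxide, was at 191, 194 and 159 FPKM with spermidine and 349.9, 319.5 and 304 with both, a change of 0.84 (adjusted p = 0.0364). NAD(P)H-dependent oxidoreductase 2, outside that list, was at 1.48, 2.57 and 1.99 FPKM with spermidine and 15.4, 14.5 and 18.3 with both, a change of 2.51 (adjusted p = 0.017). Its rise exceeded that without spermidine, which was 1.46 (interaction adjusted p = 0.0231). It was at 4.56, 5.75 and 5.41 FPKM untreated and 14.98, 13.89 and 20.15 with NaCl. The libraries with NaCl and with both thus overlapped, and the spermidine libraries lay below the untreated ones.

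Further large rises concerned a protease and an auxin-related protein. Subtilisin-like protease SBT5.4 was at 2.02, 1.8 and 1.68 FPKM with spermidine and 11.2, 13.4 and 17.4 with both, a change of 2.39 (adjusted p = 0.0185). AIR12, a protein named for its induction by auxin in Arabidopsis root cultures, was at 3.88, 6.58 and 4.86 FPKM with spermidine and 22.8, 29.3 and 25 with both, a change of 2.14 (adjusted p = 0.0222). The change of AIR12 without spermidine was 0.65, and the interaction was 1.5 (adjusted p = 0.00977). It was at 6.64, 6.7 and 10.7 FPKM untreated, above its spermidine libraries. Of 271 auxin members, 6 were higher (2.21%) and 1 lower (0.369%). With a library left out these were 0 to 5 and 0 to 1. Aspartic proteinase nepenthesin-1 fell from 15.1, 12.2 and 14.4 to 1.15, 3.32 and 2.73 FPKM (change -2.19, adjusted p = 0.0412).

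Ribosomal proteins, the protein subunits of the translation machinery, stood mostly a little higher with salt, and few members passed the test. Of 432 tested members, 18 were higher (4.17%) and 3 lower (0.694%). With a library left out these were 0 to 45 and 0 to 7, and with rice-hit unigenes scaled to a common total 4 and 4. Wholly above lay 208 (48.1%) and wholly below 17 (3.94%). The median over the list was 0.29, and it was 0.24 to 0.25 under the 3 other scalings. L18a was at 436, 458 and 489 FPKM with spermidine and 747, 733 and 724 with both, a change of 0.67 (adjusted p = 0.039), while salt alone changed it by 0.01 (interaction 0.66, adjusted p = 0.0284). With salt alone 11 members were higher and 24 lower, where 11.3% and 11.6% of all rice-hit unigenes were. The interaction was called positive for 84 (19.4%) and negative for 4 (0.926%), against 5.33% and 6.78% over all rice-hit unigenes.

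Some of the largest falls were in unigenes of conserved proteins that were listed at or near 0 in the spermidine+NaCl libraries. Ribosomal L38 was at 13.5, 8.96 and 39.3 FPKM with spermidine and listed at 0 in all 3 libraries with both (adjusted p = 0.0397). L10a was at 39.7, 18.9 and 36.4 FPKM with spermidine and 0.13, 2.88 and 0.32 with both (change -4.12, adjusted p = 0.0441), and tubulin beta-7 at 14.3, 8.62 and 14.6 FPKM with spermidine and 0, 0 and 0.15 with both (change -3.65, adjusted p = 0.0165). A stress-associated protein with an A20 zinc finger was at 4.74, 5.6 and 5.52 FPKM with spermidine and listed at 0 with both (adjusted p = 0.0107). L10a and tubulin beta-7 averaged 0.607 and 0.76 FPKM over the other 3 groups, so they passed the filter on low values only through the spermidine group, where they were high. With no filter the calls of L38 and L10a were lost, and that of L10a was also lost with a pseudocount of 0.1 and whichever library was left out. Of the 628 calls, 34 (11 higher and 23 lower) averaged under 1 FPKM outside their highest group. In all, 16 called unigenes were listed at 0 in every spermidine+NaCl library, and 9 of the rises were listed at 0 in every spermidine library. Beside this, unigenes without an Oryza hit had 846 lower and 61 higher of 24345 tested (3.48% and 0.251%), and their part in the falls of these conserved proteins was not tested.

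**Figure D5:**
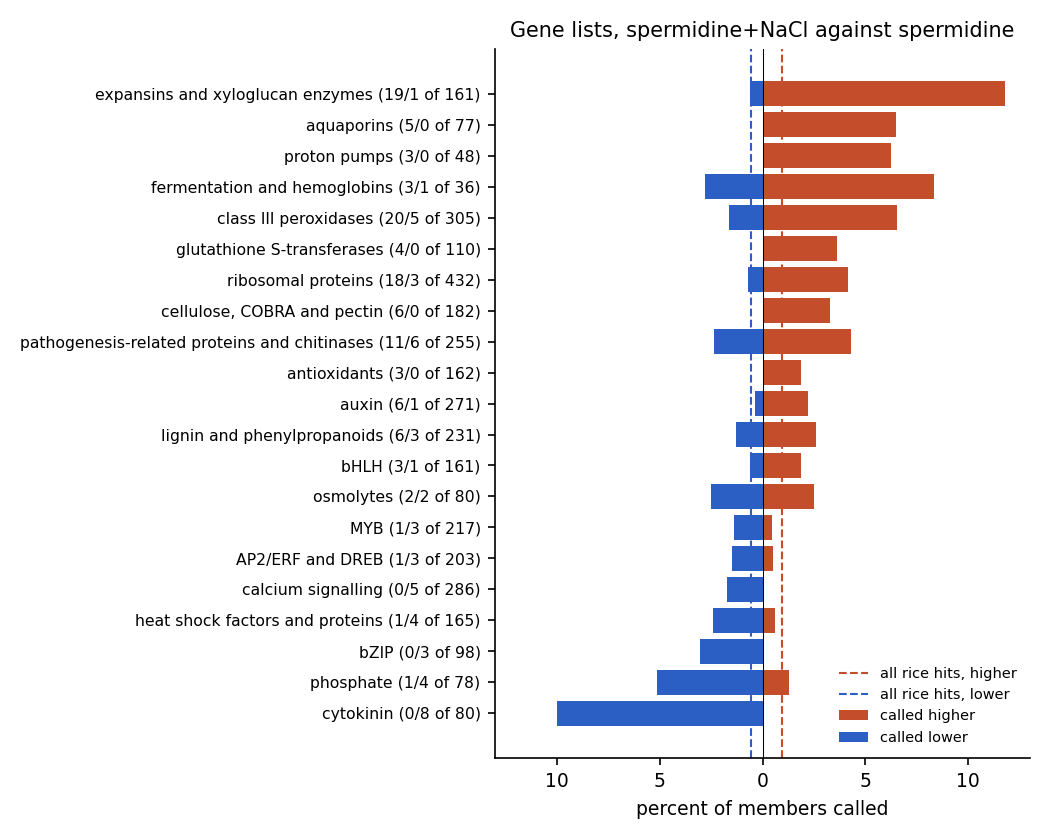
Bars give the percent of tested members called higher (right) and lower (left) with spermidine+NaCl against spermidine, for the gene lists with at least 3 calls, with the counts higher/lower of tested beside each name. Dashed lines mark 0.938% and 0.576% over all rice-hit unigenes. Expansins and xyloglucan enzymes reach furthest to the right and cytokinin furthest to the left.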

How the data were processed

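Poly-A RNA of rice roots was measured in 12 libraries, 3 in each of 4 groups. The deposited FPKM values cover 182689 unigenes. CASAVA 1.8, Bowtie2 and RSEM were used per the submitters' processing notes. What each did, how transcripts were assembled and what was filtered is not given in the sources used here. FPKM keeps no read counts, so the depth is unknown and counting error cannot be given. Values picked for being nearly equal across libraries stood at 0.948 to 1.04 times their mean in single libraries. That choice itself keeps the ratios close together, so they do not show whether depth differed. Totals were 1312574 to 1371599 FPKM per library. No column was left unmatched.

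Values were tested as log2(FPKM + 1), a scale on which the changes of low unigenes are understated, with limma 3.58.1 in R 4.3.3 and empirical Bayes variances that follow the mean. The 65836 unigenes averaging 1 FPKM or more over the libraries were fitted and adjusted together by Benjamini-Hochberg, two-sided, with calls at an adjusted p below 0.05. Spermidine+NaCl and spermidine were fitted as 2 groups, since the NaCl libraries spread less and would lower a pooled error. NaCl and untreated were fitted the same way, and the interaction in a fit of 4 groups. The interaction needs all 4 groups, so it carries that pooled error and its p-values may be too small. The steps were tested on simulated data. Alternatives were a 4-group fit, another pseudocount, other filters and scalings, library weights, a replicate block and leaving out each library.

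The 39 gene lists and 6 marker lists were taken by words in the protein descriptions, so a list can hold distant relatives. Named unigenes were a part of those given by a rule: the 12 largest rises and 12 largest falls among calls that averaged 5 FPKM or more in either group without overlap, up to 2 per direction and list, sodium transporters from 5 FPKM, polyamine genes from 10 FPKM and the 6 largest interactions each way. A further 17 were picked after their values were seen. The members, lists and tests were chosen with earlier results of these data known. No genome or sequence table was used, so no positions or sequences are given.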

Additional observations from a re-analysis of the deposited data

Results flagged for a closer look

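The change with salt differed with and without spermidine, by the interaction test (limma, Benjamini-Hochberg adjusted p below 0.05), for 5027 rice-hit unigenes. Values are log2(FPKM + 1), the change with spermidine minus the change without. Groups of 3 libraries were not searched for outlying libraries.

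Among named unigenes the interaction was positive for expansin-B18 (1.23), expansin-A6 (0.92), NAD(P)H-dependent oxidoreductase 2 (1.05), AIR12 (1.5) and GSTU6 (0.93), which rose more with spermidine present. For NAD(P)H-dependent oxidoreductase 2 and GSTU6 the libraries with NaCl and with both overlapped, and the spermidine libraries lay below the untreated ones. The spermidine libraries of expansin-B18 and AIR12 also lay below the untreated ones, while their libraries with both lay above those with NaCl. Ribosomal L18a had 0.66. It was also positive for AKT1 (0.49), PYL4 (1.49), cytokinin dehydrogenase 11 (1.01), NIP2-1 (2.9) and the F-box protein At1g67340 (4.07), whose estimated falls were smaller with spermidine present.

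It was negative for PRB1-2-like (-2.7) and proline dehydrogenase 2 (-2.48), which moved in opposite directions, and for ORR9 (-0.92) and CIPK14 (-1.08), which were called lower with spermidine present and were not called without it. Heat stress transcription factor B-2c gave -1.24. Of 52 polyamine members, 11 were negative (21.2%) and 4 positive (7.69%), against 6.78% and 5.33% over all rice-hit unigenes. The named ones were -0.9 for arginine decarboxylase 1, -2.01 for S-adenosylmethionine decarboxylase, -2.84 for putrescine hydroxycinnamoyltransferase 3 and -1.74 for polyamine oxidase 2, and 0.77 for putrescine hydroxycinnamoyltransferase 2.

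The largest negative values were in ERF109 (-9.91), bHLH35 (-9.28) and TIFY 11e (-8.31) among the named unigenes. Ribosomal L10a (-3.57), tubulin beta-7 (-4.23) and the A20 zinc finger protein (-4.73) were near or at 0 in the spermidine+NaCl libraries. L10a and tubulin beta-7 averaged only 0.607 and 0.76 FPKM over the groups other than spermidine. They passed the filter on low values only through the spermidine group, where they were high. Their interactions restate those high values and are not read as results.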

How the results depend on the processing

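The main counts were 389 rice-hit unigenes higher, 239 lower and 5027 for the interaction. Fitting all 12 libraries in 4 groups gave 1389 higher and 803 lower. No filter on low values gave 85 and 56. Library weights gave 644 higher. Rice-hit unigenes scaled to a common total gave 212 higher. The other settings kept the counts within 1.5 times. Leaving out a library gave 16 to 646 higher, 3 to 236 lower and 3460 to 5238 for the interaction. A replicate block left 0 higher and 0 lower by limma (3932 and 1983 at an unadjusted p below 0.05, against 4678 and 2533 without the block) and 4296 for the interaction. The replicate numbers were not taken to pair the libraries: deviations of same-numbered spermidine and spermidine+NaCl libraries correlated at 0.111, -0.127 and 0.08, and not every library correlated best with its own number. For named unigenes, settings other than leaving out a library left the verdict as it was in 719 cases, lost a call in 176 and gained one in 4. Leaving out a library left it as it was in 235 cases and lost a call in 382. The uncalled NHX7 changed sign, from 0.04 to -0.0113 with median ratios, -0.0266 with quantiles and -0.000226 with a common rice-hit total, and it ran from -0.0115 to 0.0714 with a library left out. The cause of these shifts was not tested. Depth is unknown, so precision rests on 3 libraries a group.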

Other observations

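Of 165 heat shock members, 4 were lower (2.42%) and 1 was higher (0.606%). With a library left out 0 to 3 were called in either direction. Heat shock protein 81-1, of the HSP90 chaperones, was at 115, 129 and 96.5 FPKM with spermidine and 56, 63.9 and 55.1 with spermidine+NaCl, a change of -0.94 on the log2 scale (limma, adjusted p = 0.0405). Heat stress transcription factor B-2c, picked after its values were seen, was at 2.78, 2.27 and 2.35 FPKM with spermidine and 0.94, 0.68 and 0.86 with both (change -0.92, adjusted p = 0.0482), and at 1.33, 1.8 and 1.89 untreated and 2.34, 1.98 and 2.62 with NaCl (interaction adjusted p = 0.00821).

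Genes of auxin balance moved singly. ILR1-like 3, a hydrolase that frees auxin from its amino acid conjugates, was at 5.36, 4.96 and 3.68 FPKM with spermidine and 22.8, 14 and 16.9 with both (change 1.72, adjusted p = 0.037). IAA16, of the repressors that auxin removes, was at 24.7, 28 and 19.98 FPKM with spermidine and 10.9, 10.6 and 11.4 with both (change -1.06, adjusted p = 0.0353). ACC oxidase 1, the last enzyme of ethylene synthesis, was at 3.99, 4.98 and 4.52 FPKM with spermidine and 8.13, 9.85 and 10.6 with both (change 0.93, adjusted p = 0.0481), and 2 of 41 ethylene synthesis members were higher and 0 lower. An alcohol dehydrogenase-like 2 unigene was at 5.38, 5.5 and 4.65 FPKM with spermidine and 12.7, 10.4 and 10.8 with both (change 0.99, adjusted p = 0.0332), in a list for fermentation and hemoglobins with 3 of 36 higher and 1 lower (0 to 3 and 0 with a library left out). The groups did not overlap for any of these 4 unigenes. Without the libraries in turn, the call was lost in all 6 fits for ILR1-like 3 and ACC oxidase 1, in 4 for IAA16 and in 5 for the dehydrogenase.

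In the remaining lists, higher and lower calls were 1 and 3 of 217 MYB members (0 to 2 and 0 to 1 with a library left out), 1 and 0 of 37 for diterpenoid phytoalexins, 1 and 0 of 84 for iron, 1 and 0 of 305 for the cell cycle and 0 and 2 of 111 MAP kinases. For nitrogen (90 members), gibberellin (33) and histones (32), limma called 0 in both directions. At an unadjusted p below 0.05, 4678 of the 41491 rice-hit unigenes were higher and 2533 lower. These lists had 16 higher and 9 lower, 4 and 1, and 1 and 3. In the 4-group fit they had 4 and 4, 0 and 0, and 1 and 1. Xylem and secondary wall markers had 1 of 41 higher, and 0 were called among markers of root hairs (5), phloem (6), shoot (25) and organelle-encoded genes (20). At an unadjusted p below 0.05 the shoot markers had 1 higher and 2 lower, the organelle-encoded 2 and 1, and the other two lists 0, and the 4-group fit called 0 in all 4.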
